A study of Mus musculus with 6 samples.

Results

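The cytosolic ribosomal protein genes encode the protein part of the large and the small subunit of the ribosome that translates nuclear mRNAs. They were taken by symbol, as Rpl or Rps followed by a number and at most an a or x, together with Rplp0, Rplp1, Rplp2 and Rpsa. Each gene was represented by the probe set that named it alone and had the highest mean log2 signal over the 6 arrays. In all, 42 genes were measured in this way, 22 of the large and 20 of the small subunit, among 18194 genes on the array. The RefSeq gene table held 76 genes that fit the rule, so 34 were without a probe set of their own, and 27 of these were named only by probe sets that list several genes. Rplp1, Rpl5, Rpl10, Rpl23, Rpl26 and Rps27a were among the genes not measured here.

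The study compared mouse Th2 cells, the IL-4-producing class of helper T cells, with and without knockdown of GATA3, the transcription factor that directs their development. Splenic CD4 T cells of C57BL/6 mice, 6 to 8 weeks old, were cultured for 5 days with immobilized anti-TCR antibody, anti-CD28 antibody, 25 U/ml IL-2 and 100 U/ml IL-4 (Th2-1st cells), or were carried on through repeated rounds of 2 days without added cytokines and 5 days with anti-TCR antibody, IL-2 and anti-IL-4 antibody (Th2-4th cells). Both cultures received control siRNA or Gata3 siRNA by nucleofection, and after 24 hours were left unstimulated or were stimulated with anti-TCR antibody for 4 hours. The 6 conditions were control siRNA without stimulation, control siRNA with stimulation and Gata3 siRNA with stimulation in each culture, with 1 array per condition. All cells had therefore been transfected, and no unstimulated cells with Gata3 siRNA were measured. Each value below is a signal, the brightness of a probe set on a linear scale, and each difference is the log2 ratio of 2 arrays, on which 1 is a 2-fold difference. There were no replicates and no test was run, and the words rose and fell are used only for ratios over 2-fold or under 0.5-fold.

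Gata3 itself read 4883 with control and 1798 with Gata3 siRNA in stimulated Th2-1st cells, and 9261 and 2853 in stimulated Th2-4th cells. Of 8 T cell marker genes, 7 were measured, and all of these lay above the array median on every array. Marker genes of B cells summed to 74.5 to 169 per array, of erythroid cells to 7.38 to 31.5 and of myeloid cells to 298 to 475, against 40772 to 75181 for T cells. Those of CD8 T and NK cells summed to 542 to 2725 and of mast cells and basophils to 96.9 to 1197. The part of these cell types in the results was not tested. The arrays had been scaled to the same trimmed mean, but their medians differed, by log2 0.25 and 0.24 between Th2-4th and Th2-1st control cells without and with stimulation and by 0.17 between Gata3 and control siRNA in Th2-1st cells.

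A ribosome contains 1 copy of nearly every ribosomal protein, and the genes for these proteins are expressed at a high and coordinated level in growing cells. Their mRNAs begin with a C followed by a run of pyrimidines, the 5′ terminal oligopyrimidine (TOP) tract, through which the TOR kinase and the RNA-binding protein LARP1 control their translation. Activated T cells enlarge and make more ribosomes before they divide, a step driven by MYC and TOR. Control of ribosomal protein synthesis through TOP tracts acts on translation, which arrays of mRNA do not measure.

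The annotated starts of the genes were examined first, because the TOP tract is the feature that these genes are known to share. RefSeq promoter windows (GRCm38.p6), which run from 250 bases before to 50 bases after the annotated start, were present for 37 of the 42 genes. A C followed by at least 4 pyrimidines within 3 bases of the annotated start was found in 14 of these 37 genes (37.8%), against 13.5% of 27025 genes with a window. By windows, since a gene can have several starts, the shares were 32.6% of 43 and 11.5% of 32851. The sequences below hold 15 bases on each side of the start for genes with the largest ratios or ranges, for Rps6, which had the smallest range, and for the stalk proteins, Rpsa and Rpl41. Capitals mark the tract from its first C within 3 bases of the start, and pyrimidines before that C, as in Rpl7a and Rplp2, are not marked. A sequence without capitals held no tract that fit this rule.
Rplp0 (chr5:115559452-115559481, plus strand): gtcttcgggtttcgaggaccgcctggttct
Rplp2 (chr7:141447636-141447665, plus strand): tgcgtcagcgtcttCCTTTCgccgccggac
Rpl12 (chr2:32961697-32961726, plus strand): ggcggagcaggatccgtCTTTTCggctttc
Rpsa (chr9:120127751-120127780, plus strand): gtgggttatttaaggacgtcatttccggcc
Rpl41 (chr10:128549154-128549183, minus strand): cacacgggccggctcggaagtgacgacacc
Rpl7a (chr2:26910792-26910821, plus strand): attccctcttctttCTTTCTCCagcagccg
Rps4x (chrX:102189377-102189406, minus strand): ctgaggctgggcggagcaacccaggctcca
Rps6 (chr4:86857353-86857382, minus strand): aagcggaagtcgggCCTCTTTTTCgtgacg
Rps25 (chr9:44407699-44407728, plus strand): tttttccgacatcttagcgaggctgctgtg
Rps27 (chr3:90213634-90213663, minus strand): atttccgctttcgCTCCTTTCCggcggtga
Rpl39 (chrX:37085208-37085237, minus strand): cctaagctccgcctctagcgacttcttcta
Rps16 (chr7:28350674-28350703, plus strand): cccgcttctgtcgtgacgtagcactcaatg

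Counted from that C, the tracts found were 6 to 18 bases long, and only 1 of them, in Rpl38, began at the annotated start itself. The full runs of pyrimidines can be longer and begin earlier. A GATA word on either strand (AGATAA or its variant ending in G, AGATAG, and the same pair with T in front, TGATAA or else TGATAG) occurred in the windows of 9 of the 37 genes (24.3%), against 33% of all genes. TATAAA on either strand was found in 5 genes (13.5%, against 15.7%) and the E-box CACGTG, the word bound by MYC, in 4 (10.8%, against 8.09%). None of these words says that a factor binds there. The 42 genes lay on 15 chromosomes, and Rpl39 and Rps4x lay on the X chromosome.

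The ribosomal protein genes were among the brightest features of the arrays. In all, 36 of 42 belonged to the 10% of genes with the highest mean signal, which began at 2626, and the probe set of Rps29, a zinc-binding protein of the small subunit, was the brightest of all 45101 probe sets on 4 of the 6 arrays. The genes fell into 33 with a mean signal above 15000 and 9 below, a limit chosen after the values were seen. Rps26, at 23310, was the dimmest of the 33, and the next below was Rpl37 at 5686. The lowest of the 33 stood at 44.3% to 52.0% of the brightest probe set on the same array. Levels of different probe sets do not compare mRNA amounts, since each binds its target with its own strength.

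The 33 brighter genes had nearly the same profile over the arrays. Rplp0, the scaffold of the ribosomal stalk that recruits translation factors, read 23648, 35764 and 39277 in Th2-1st cells (unstimulated, stimulated, stimulated with Gata3 siRNA), and 41808, 43649 and 37540 in Th2-4th cells in the same order. Rpsa, the small-subunit protein also known as the laminin receptor, read 27533, 40100 and 44536 on the Th2-1st arrays and 43999.7, 43606 and 39002 on the Th2-4th arrays. Rps29 read 32575, 46409.5 and 52104 on the Th2-1st arrays, and 51338, 58757 and 50029.6 on the Th2-4th arrays. In these genes the unstimulated Th2-1st array was the lowest, and it was the lowest for 33 of the 33 genes. The highest array was stimulated Th2-4th control for 19, unstimulated Th2-4th control for 10 and Th2-1st with Gata3 siRNA for 4. The same counts were not made over all genes, so they are not read as particular to these genes.

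**Figure D1:**
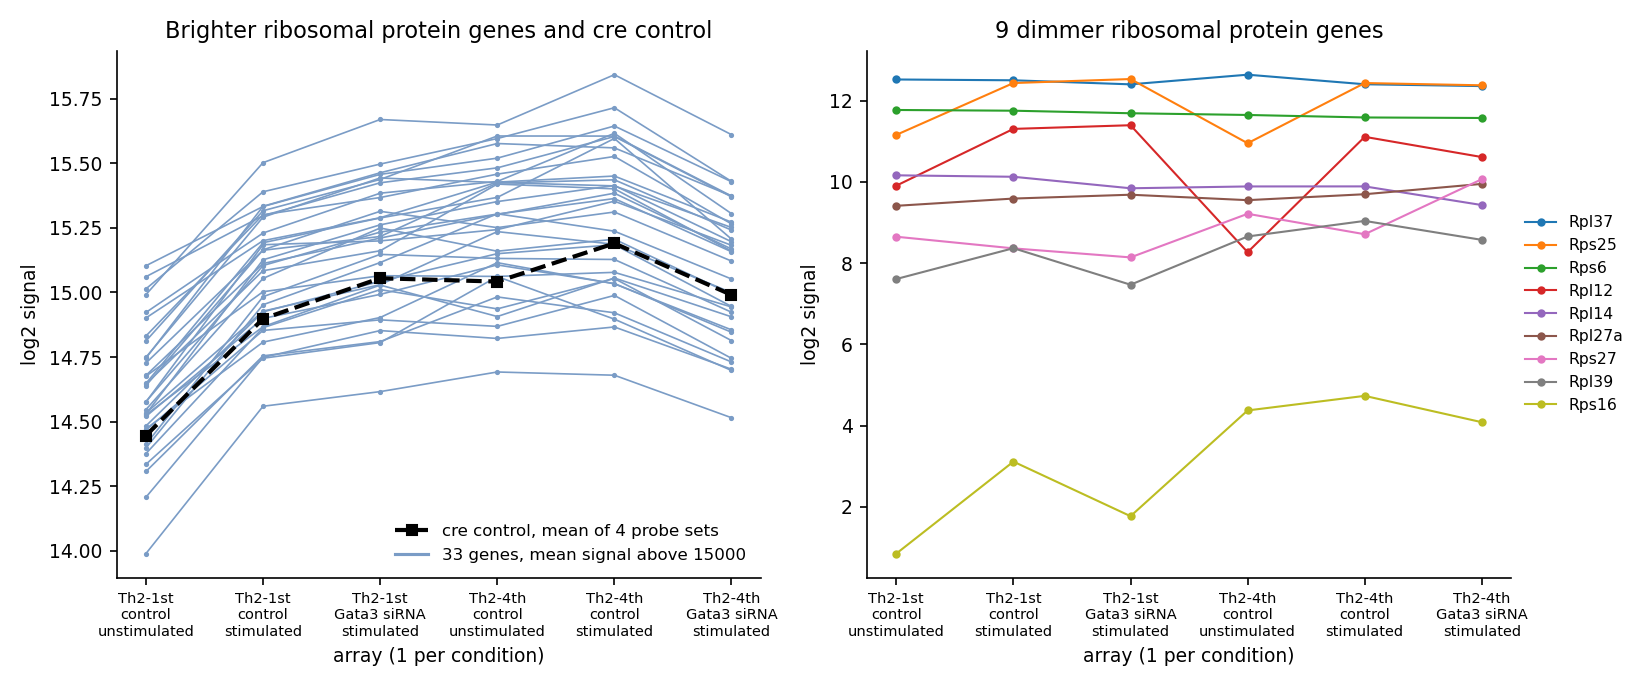
Log2 signal (y axis) on the 6 arrays (x axis, 1 per condition) for the 33 ribosomal protein genes with a mean signal above 15000 together with the mean of the 4 cre hybridization control probe sets (left), and for the 9 dimmer genes (right). Lines join the values of 1 gene. The 33 genes and the cre control were lowest on the unstimulated Th2-1st array, and among the dimmer genes Rpl12 and Rps25 were high on the stimulated arrays.

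A similar, though not identical, profile was seen in a control that does not come from the cells. The cre hybridization control is a bacteriophage transcript that is labelled beforehand and added in equal amount to each sample, and its 4 probe sets had a geometric mean of 22323, 30533 and 34038 on the Th2-1st arrays and of 33736, 37375 and 32554 on the Th2-4th arrays, in the order given above. It was thus also lowest in unstimulated Th2-1st cells. The other hybridization controls, bioB, bioC and bioD (14 probe sets), had medians of 0.38 and 0.08 after stimulation in Th2-1st and Th2-4th cells, 0.52 and 0.22 between the cultures without and with stimulation, and 0.09 and -0.08 for Gata3 siRNA. The 43 other genes that were at least as bright as Rps26 had medians of 0.43, 0.15, 0.50, 0.23, 0.08 and -0.20 in the same order. These 43 were taken only as lying outside the symbol rule. They include the ribosomal genes Fau and Rps3a1 and the TOP mRNAs Eef1a1, Pabpc1 and Tpt1, and so are not a group without ribosomal genes. The bacterial poly-A controls, which are added before labelling, had other medians, given under the results flagged for a closer look. The part of the scaling and of the signal range in the ratios of the 33 genes was not tested, and each ratio is given below beside that of the cre control.

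In Th2-1st cells, the ribosomal protein genes had a median log2 ratio of 0.44 (robust SD 0.16, n = 42 genes) between stimulated and unstimulated control cells, which became -0.01 when the cre control set the scale. The ratio was above 1 for 38 of 42, where 49.5% of all genes and 60.9% of the brightest 10% were above 1. Over 2-fold, 3 genes were higher, where 17.5% of all genes rose, and 0 fell, where 16.9% of all genes fell. The 3 were Rpl12, Rps25 and, at background signals (1.81 and 8.67), Rps16. Among the 33 brighter genes the ratio ran from 0.23 for Rps20 to 0.61 for Rpl22, a large-subunit protein needed for the development of T cells, with a median of 0.45. The mean of the cre control was 0.45, and 16 of the 33 genes were above it and 17 below. At the low end of the 42 genes stood Rps27 at -0.29, Rpl14 at -0.04 and Rpl37 at -0.02.

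In Th2-4th cells, the median after stimulation was 0.05 (robust SD 0.11, n = 42 genes), and it was -0.01 after quantile normalization and -0.10 on the cre scale. The ratio was above 1 for 27 of 42 genes, against 46.4% of all genes and 55.6% of the brightest 10%. Rpl12 and Rps25 were the 2 genes that rose, where 18.7% of all genes rose, and 0 fell, where 21.6% of all genes fell. The 33 brighter genes ran from -0.16 for Rps9 to 0.23 for Rps4x, an X-linked protein of the small subunit, around a median of 0.04. The cre control had 0.15, with 4 genes above it and 29 below. The 3 highest of all were Rpl12, Rps25 and Rpl39 (0.38), and the 3 lowest were Rps27 (-0.50), Rpl37 (-0.24) and Rps9. For each of the 33 brighter genes the stimulation ratio was lower in Th2-4th than in Th2-1st cells, by a median of -0.44, where 52.8% of all genes were lower, with a median of -0.06. The cre control differed by -0.30 in the same direction, and on its scale 26 of the 33 genes were lower.

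Rpl12 and Rps25 went beyond the common profile. Rpl12, which forms the base of the stalk beside Rplp0, read 962, 2534 and 2697 in Th2-1st cells (unstimulated, stimulated, stimulated with Gata3 siRNA), and 309, 2213 and 1567 in Th2-4th cells. Rps25, a small-subunit protein used in initiation on viral RNAs, read 2288, 5541 and 5933 on the Th2-1st arrays, and 1984, 5541 and 5331 on the Th2-4th arrays. Both were lowest on the unstimulated arrays, and every stimulated array was above every unstimulated array. Rpl12 rose by 1.40 and 2.84 after stimulation in Th2-1st and Th2-4th cells, and Rps25 by 1.28 and 1.482. On the cre scale these were 0.95 and 2.69 for Rpl12 and 0.82 and 1.33 for Rps25, so that the ratios in Th2-1st cells were no longer over 2-fold. Each of these genes had 1 probe set, so no second probe set could be compared. The other 2 measured stalk genes, Rplp0 and Rplp2, stood at 0.60 and 0.59 in Th2-1st and 0.06 and -0.02 in Th2-4th cells. Their probe sets had mean signals of 36267 and 41529, so these lower ratios cannot be told apart from the difference in signal.

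The remaining dimmer genes had no common profile. Rps6, the main substrate of the S6 kinases, read 3499, 3456 and 3309 in Th2-1st and 3214, 3079.8 and 3053 in Th2-4th cells, the smallest range of all 42 genes (0.20 on the log2 scale). Rpl37 had a range of 0.28, and the smallest among the brighter genes were those of Rpl10a, at 0.40, Rps15, at 0.52, and Rpl11, which binds and inhibits MDM2 when ribosome assembly fails, at 0.53. The largest ranges were those of Rps16 (3.88), Rpl12 (3.13), Rps27 (1.93), Rps25 (1.58) and Rpl39 (1.57). Rps16 read 1.81 to 26.6, below the median signal of each array. Raising signals below the array median to that median therefore leaves only the difference of array medians in its ratios, which is within 0.25 of 0 by design. Its ratios are counted with the others throughout, but they are ratios of background signals.

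Probe sets of the same gene could differ from each other. The 42 genes had 94 probe sets in all, 20 genes with 1 and 22 with several. Of these, 64 probe sets of 33 genes had a mean signal above 15000, and their stimulation medians were 0.44 for Th2-1st and 0.03 for Th2-4th cells, with 0 of 64 over 2-fold in either culture. A further 25 probe sets of 19 genes had a mean signal between 50 and 15000. Of these, 12 were over 2-fold higher after stimulation in Th2-1st cells, with 1 lower than 0.5-fold, and 12 were over 2-fold higher in Th2-4th cells, with 2 lower. On the cre scale, 2 of the 25 were over 2-fold higher for Th2-1st and 11 for Th2-4th cells. Among the 19950 probe sets of other genes in this range, 1890 and 2737 were over 2-fold higher as deposited in Th2-1st and Th2-4th cells, and 3019 and 3795 were under 0.5-fold. Their counts on the cre scale were not made.

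Rpl41, which encodes the smallest ribosomal protein, had both kinds of probe set. The probe set that stood for the gene read 21595 and 31704 before and after stimulation of Th2-1st cells, and 40464 and 38618 before and after stimulation of Th2-4th cells. A dimmer probe set of Rpl41 read 911 and 3248 in Th2-1st and 384 and 1751 in Th2-4th cells, and another read 964 and 2542 in Th2-1st and 291 and 1459 in Th2-4th cells. The bright probe set thus had ratios of 0.55 and -0.07, and the dimmer ones of 1.83 and 2.19, and of 1.40 and 2.33. Dimmer probe sets of Rps18 (1.002 to 1.12 in Th2-1st and 1.95 to 2.10 in Th2-4th cells, 3 probe sets), Rps9 (1.20 and 1.53), Rps10 (1.39 and 1.55), Rpl35 (1.82 and 2.30) and Rpl37a (1.12 and 1.03) were also higher after stimulation. Those of Rpl22 were the reverse, at -1.33 and -1.25, and Rps3, which binds mRNA at the entry channel of the small subunit, had a dimmer probe set at -0.47 and -1.17. Which probe set follows the mRNA of these genes was not tested.

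**Figure D2:**
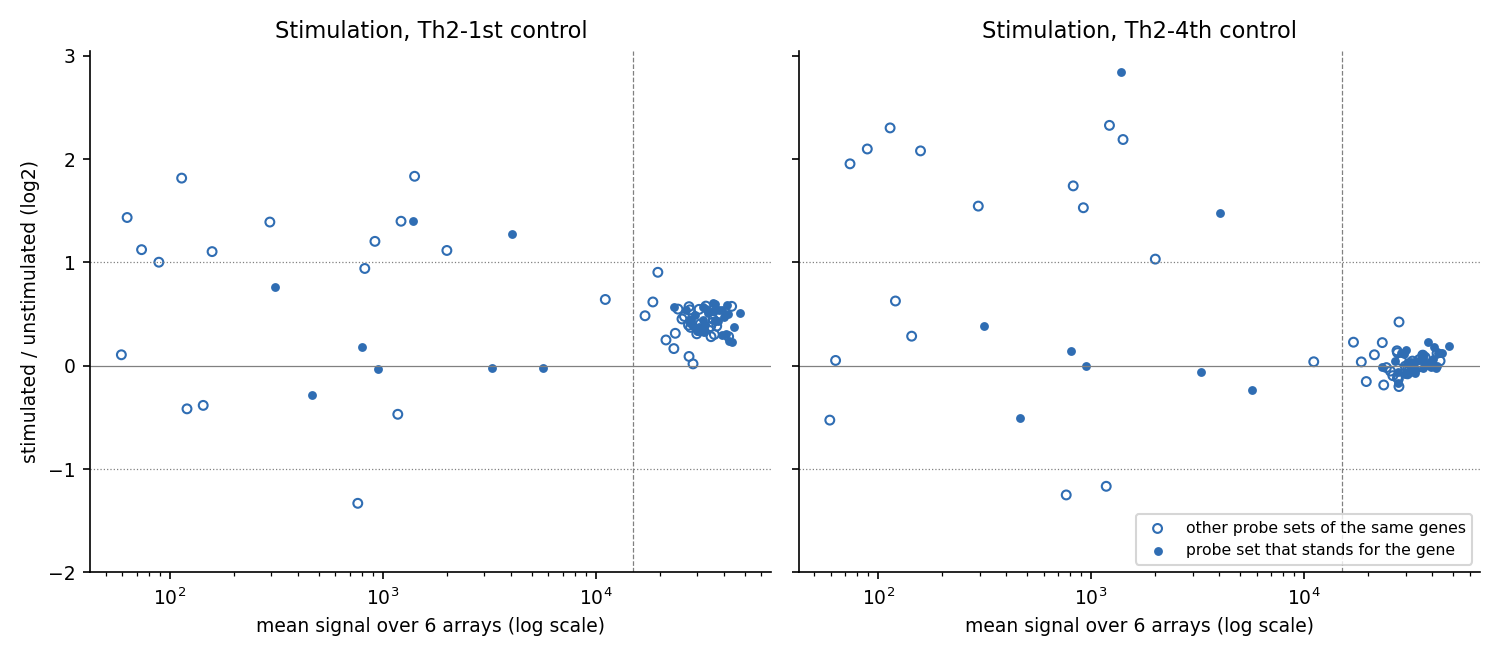
Log2 ratio of stimulated to unstimulated control cells (y axis) against the mean signal over the 6 arrays (x axis, log scale) for the probe sets of the 42 ribosomal protein genes with a mean signal of at least 50, in Th2-1st (left) and Th2-4th cells (right). Filled points are the probe sets that stand for a gene and open points its others, the dashed line marks 15000 and the dotted lines 2-fold in either direction. To the right of 15000, 0 of 64 probe sets passed 2-fold, and to the left 12 of 25 were over 2-fold higher in each culture, of which 2 for Th2-1st and 11 for Th2-4th cells were so on the cre scale. Among 19950 probe sets of other genes in the range to the left, 1890 and 2737 were over 2-fold higher as deposited.

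Where a gene had a pair of probe sets above 15000 (17 genes), the ratios of its brightest and its next brightest probe set differed by a median of 0.10 and 0.14 after stimulation, 0.18 and 0.11 between the cultures, and 0.07 and 0.07 for Gata3 siRNA. The largest such difference was that of Rps15, 0.95, between the cultures without stimulation. Ratios of single genes that differ by less than these amounts cannot be ordered. The 110 probe sets that list a gene of the rule with other genes, which cover 42 genes of the rule, had medians of 0.42 and 0.01 after stimulation, 0.56 and 0.20 between the cultures and 0.12 and -0.18 for Gata3 siRNA.

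**Figure D3:**
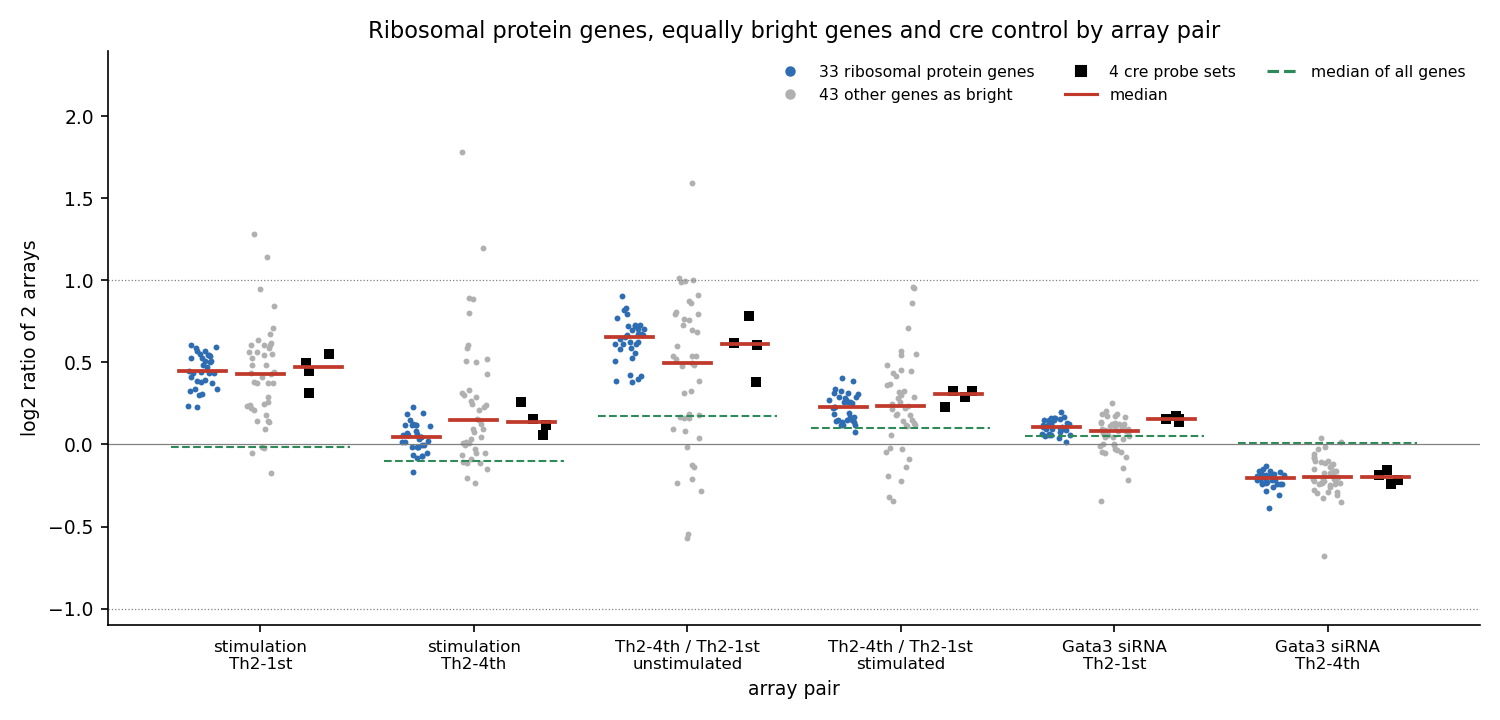
Log2 ratio (y axis) in the 6 array pairs (x axis) for the 33 brighter ribosomal protein genes (blue), the 43 other genes that are at least as bright (grey) and the 4 cre control probe sets (black). The grey genes include Fau and Rps3a1, ribosomal genes outside the symbol rule, and TOP mRNAs such as Eef1a1. Red bars are medians and green dashed lines the medians of all genes. The ribosomal protein genes stood at medians of 0.45, 0.04, 0.66, 0.23, 0.11 and -0.20 from left to right, where the cre control had means of 0.45, 0.15, 0.60, 0.29, 0.16 and -0.20, and on the cre scale the medians of the 33 genes were -0.004, -0.10, 0.06, -0.07, -0.05 and -0.005.

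Between the cultures, unstimulated Th2-4th control cells were compared with unstimulated Th2-1st control cells. The 42 genes had a median log2 ratio of 0.62 (robust SD 0.15), which kept its sign but became 0.38 after each array was centred on its median and 0.03 after quantile normalization or on the cre scale. The ratio was above 1 for 38 of 42, against 58.2% of all genes and 49.4% of the brightest 10%. Over 2-fold, Rpl39 rose and Rps16 was higher at background signals (1.81 and 20.8), where 19.5% of all genes rose, and Rpl12 fell by 1.64, where 12.3% of all genes fell. The 33 brighter genes ran from 0.38 for Rpl11 to 0.91 for Rpl41, and the cre control stood at 0.60, with 23 genes above it and 10 below. Rplp0 and Rplp2 stood at 0.82 and 0.83, Rpl38, a protein with a role in the translation of Hox mRNAs, at 0.79, and Rps19, the gene most often mutated in Diamond-Blackfan anaemia, at 0.64. At the low end, Rpl12 was followed by Rpl14 at -0.27 and Rps25 at -0.21.

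Rpl39, a small protein that lines the exit tunnel of the large subunit, read 196, 331 and 177 on the Th2-1st arrays and 404, 527 and 381 on the Th2-4th arrays, with the order of arrays as before. Each Th2-4th array was thus above each Th2-1st array. Its ratio between the unstimulated cultures was 1.05, but 0.80 after centring, 0.96 after quantile normalization and 0.45 on the cre scale, so it passed 2-fold only as deposited.

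In stimulated control cells, Th2-4th over Th2-1st, the median of the 42 genes was 0.23 (robust SD 0.12), and it changed sign to -0.01 after centring, -0.03 after quantile normalization and -0.07 on the cre scale. The ratio was above 1 for 37 of 42, against 55% of all genes and 49.4% of the brightest 10%. Past 2-fold, only Rps16 at background signals was higher, where 17.2% of all genes were, and 0 were lower, where 12.7% of all genes were. The 33 brighter genes ran from 0.07 for Rpl10a to 0.40 for Rps4x, and the cre control stood at 0.29, with 7 genes above it and 26 below. The next highest of the 42 was Rpl39 at 0.67, and the lowest were Rpl14 (-0.24), Rpl12 (-0.20) and Rps6 (-0.17).

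Under knockdown of GATA3 the 33 brighter ribosomal protein genes lay in a narrow band in each culture, and the dimmer genes ranged more widely. In stimulated Th2-1st cells, the median log2 ratio of Gata3 siRNA to control siRNA was 0.10 (robust SD 0.06, n = 42 genes), and it was -0.07 after centring, 0.00 after quantile normalization and -0.06 on the cre scale. The ratio was above 1 for 36 of 42, against 56% of all genes and 47% of the brightest 10%, a share that after centring was 2.38% of the 42. Over 2-fold, 0 rose, where 13.3% of all genes rose, and Rps16, at background signals, was the 1 gene under 0.5-fold, where 7.49% of all genes fell. The 33 brighter genes ran from 0.01 for Rpl22 to 0.19 for Rpl7a, and Rpl7a, Rps29 (0.17) and Rps2 (0.16), the 3 highest, were too close to be ordered. The cre control was 0.16, with 5 of the 33 genes above it and 28 below. Beside Rps16, the lowest were Rpl39 (-0.90, and -1.07 after centring, under 0.5-fold) and Rpl14 (-0.28).

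In stimulated Th2-4th cells, the median was -0.20 (robust SD 0.06, n = 42 genes), with -0.16 after centring, 0.01 after quantile normalization and -0.002 on the cre scale. The ratio was above 1 for 2 of 42 genes, Rps27 and Rpl27a (0.25), against 50.7% of all genes and 48.6% of the brightest 10%. Over 2-fold, Rps27 rose, where 10.6% of all genes rose, and 0 fell, where again 10.6% of all genes fell. The 33 brighter genes ran from -0.39 for Rps4x to -0.13 for Rpl10a, and the cre control was -0.20, with 16 genes above it and 17 below. At the low end of the 42 stood Rps16 (-0.65, at background signals), Rpl12 (-0.50) and Rpl39 (-0.47), and Rps6, at -0.01, was the third highest. The ratios of Rps3, Rpl13a and Rpl11, which have been given roles outside the ribosome, were -0.19, -0.28 and -0.15, and in Th2-1st cells 0.06, 0.11 and 0.16.

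The knockdown ratio was above 1 in Th2-1st and below 1 in Th2-4th cells for 33 of the 33 brighter genes, where 25.3% of all genes had this order. The median difference between the cultures was -0.32. The cre control went the same way, with a difference of -0.36. This order held for the values as deposited, and 1 of the 33 genes had it after centring, 5 after quantile normalization and 3 on the cre scale. After centring, 1 of the 33 was above 1 in Th2-1st cells and 33 were below 1 in Th2-4th cells. These counts were 17 and 11 after quantile normalization and 5 and 17 on the cre scale. Quantile normalization gives each rank the same value on every array, and so keeps the ratios of such bright genes small by design. The part of the scaling in this order was not tested. Rps27, a zinc-binding protein of the small subunit, had the opposite order. It read 402, 329.9 and 283 on the Th2-1st arrays and 595, 419.9 and 1074 on the Th2-4th arrays, so that the Th2-4th array with Gata3 siRNA was the highest of the 6. Its knockdown ratio was -0.22 for Th2-1st and 1.36 for Th2-4th cells, and the latter was 1.39 after centring and 1.55 on the cre scale. Rps27 had 1 probe set, and whether another probe set would show this was not tested.

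Large and small subunit genes were set side by side. Among the 33 brighter genes, the medians of 17 large and 16 small subunit genes were 0.50 and 0.43 after stimulation of Th2-1st cells and 0.04 and 0.05 after that of Th2-4th cells. They were 0.67 and 0.65 between unstimulated and 0.23 and 0.24 between stimulated cultures, and 0.12 and 0.10, and -0.19 and -0.21, for Gata3 siRNA in Th2-1st and Th2-4th cells. Genes with and without a pyrimidine tract at the annotated start were compared in the same way. The 9 brighter genes with a tract had medians of 0.47, 0.05, 0.63, 0.23, 0.12 and -0.21 over the same comparisons, and the 19 with a window but no tract 0.45, 0.02, 0.68, 0.19, 0.10 and -0.19. Whether these medians differ was not tested.

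Other genes of the translation machinery were read beside the ribosomal protein genes. The shares of all genes past 2-fold, given above for each comparison, apply to the counts of these lists as well. Translation factors and other mRNAs known to carry a TOP tract (18 of 20 measured, 11 of them above 15000) had stimulation medians of 0.33 for Th2-1st and 0.02 for Th2-4th cells, -0.12 and -0.13 on the cre scale, and 0 of 18 passed 2-fold in either. Eef1a1, the elongation factor that delivers tRNA to the ribosome, read 24070.1 and 37473 before and after stimulation of Th2-1st cells, and 45345 and 48417 for Th2-4th cells. Tpt1 was the 1 gene of this list past 2-fold in any comparison, at 1.02 between the unstimulated cultures. For Gata3 siRNA the medians of the list were 0.04 and -0.16, again with 0 of 18 past 2-fold. Of the ribosomal genes whose symbols lie outside the rule, 8 of 13 were measured, and Fau, which encodes the small-subunit protein eS30 fused to a ubiquitin-like protein, had ratios of 0.43 and -0.11 after stimulation. Past 2-fold after stimulation were 1 of these 8 for Th2-1st and 2 for Th2-4th cells, and they are named after their values were seen. Rpl7l1, a dimmer paralog of Rpl7, had 0.80 for Th2-1st, rose by 1.46 for Th2-4th cells and fell by 1.04 between the unstimulated cultures, and Rps4l (Th2-1st) and Rpl3l (Th2-4th) were higher at background signals.

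Ribosome biogenesis genes, which process rRNA and assemble the subunits, were mostly dimmer, with 1 of 51 above 15000. Of 51 measured, 30 rose over 2-fold after stimulation of Th2-1st and 41 after that of Th2-4th cells, with 0 falling. Among all genes, 17.5% and 18.7% rose and 16.9% and 21.6% fell. The medians of the list were 1.13 and 2.02, which on the cre scale were 0.68 and 1.87. Between the unstimulated cultures 25 fell and 0 rose (median -0.87), where 12.3% of all genes fell and 19.5% rose. For Gata3 siRNA 0 of 51 passed 2-fold in either culture (medians -0.07 and -0.24). The stimulation ratios of this list ran from -0.01 for Ubtf to 2.54 for Rrp9 in Th2-1st cells and from -0.35 for Sbds to 3.90 for Rrp9 in Th2-4th cells. The brighter ribosomal protein genes had 0 of 33 past 2-fold in these comparisons, but these lists also differ in signal. Of the 25 dimmer probe sets of ribosomal protein genes, 12 were over 2-fold higher after stimulation in each culture. Among 19950 probe sets of other genes in this range, 1890 and 2737 were over 2-fold higher in Th2-1st and Th2-4th cells. Of the 25, 1 and 2 were under 0.5-fold in Th2-1st and Th2-4th cells. On the cre scale, 2 and 11 of the 25 were over 2-fold higher, a count not made for other genes. The part of the signal range in this contrast was not tested.

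**Figure D4:**
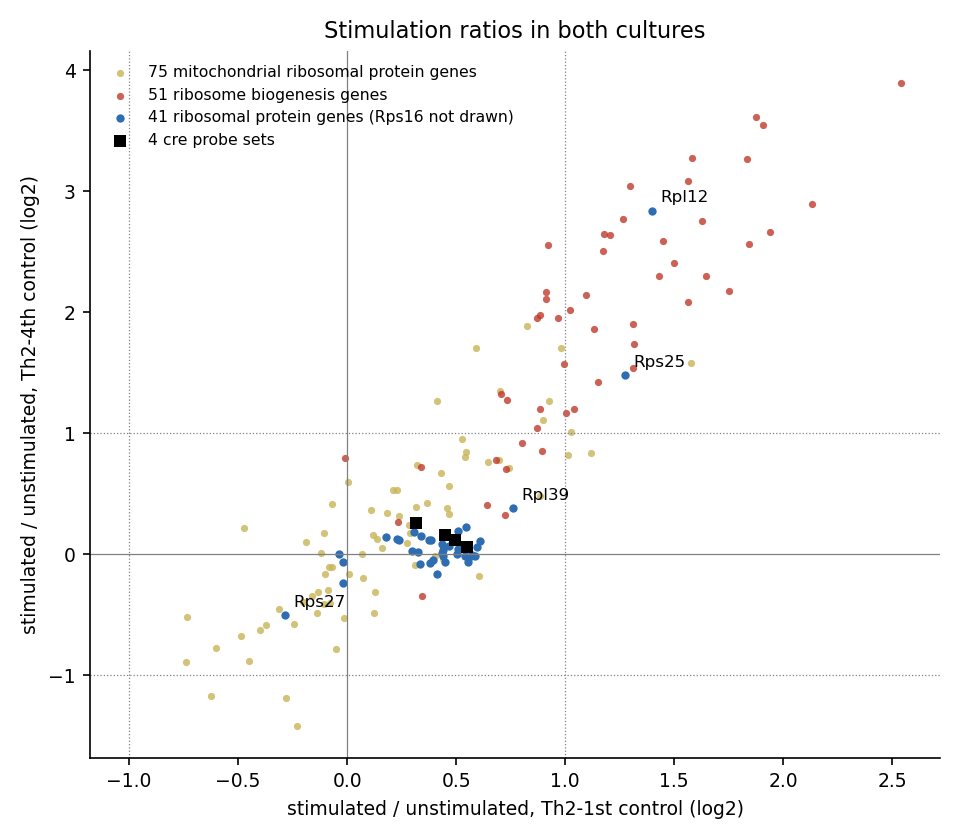
Log2 ratio of stimulated to unstimulated control cells in Th2-4th (y axis) against Th2-1st cells (x axis) for the ribosomal protein genes (blue, Rps16 not drawn), ribosome biogenesis genes (red), mitochondrial ribosomal protein genes (yellow) and the 4 cre control probe sets (black). Dotted lines mark 2-fold in either direction. Most ribosomal protein genes lay around the cre control, and Rpl12 and Rps25 were over 2-fold in both cultures. Dimmer probe sets of Rpl41 and Rps9, which are not drawn, were also over 2-fold in both cultures as deposited.

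The genes of the mitochondrial ribosome, 75 in all and none of them above 15000, had stimulation medians of 0.14 and 0.12, with 4 rising in Th2-1st cells and 9 rising and 3 falling in Th2-4th cells. Between the cultures their medians were -0.42 without and -0.51 with stimulation, 9 and 6 fell and 0 rose, and for Gata3 siRNA 0 of 75 passed 2-fold. Each of these counts was a smaller share of the list than the share of all genes given above. The cytosolic genes stood at 0.62 and 0.23 in these culture comparisons. Among 15 measured genes of the TOR and MYC pathways, Myc read 1841 and 4939 before and after stimulation of Th2-1st cells, and 299 and 5218 for Th2-4th cells, and Larp1 read 2442 and 5163.5 for Th2-1st, and 1323 and 5501 for Th2-4th cells. In all, 5 of the 15 rose and 1 fell in Th2-1st, and 6 rose and 1 fell in Th2-4th cells after stimulation. Among all genes, 17.5% rose and 16.9% fell in Th2-1st, and 18.7% rose and 21.6% fell in Th2-4th cells. For Gata3 siRNA 1 of 15, Mycn, fell in Th2-1st, where 7.49% of all genes fell, and 0 passed 2-fold in Th2-4th cells.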

How the data were processed

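Total RNA was labelled with an in vitro transcription kit for 3′ arrays and hybridized to 6 Affymetrix mouse arrays, 1 per condition. The deposited values are intensity values, linear signals of 45101 probe sets that the authors made with Affymetrix Expression Console (version and algorithm not given in the sources used here). They had been scaled, since the mean without the outer 2% at each end was 500.0 on each array. They were used as deposited, and log2 was taken without a pseudocount.

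Probe sets were named through the platform annotation: 34958 named 1 gene, 932 several and 9211 none. Of the 34958, 34754 (99.4%) were matched to RefSeq (GRCm38.p6) by gene ID and took its symbol. The probe set brightest by mean log2 signal stood for its gene, and 6 array pairs were compared as log2 ratios. Lists are described by their median, a robust SD (the median absolute deviation multiplied by 1.4826) and counts over 2-fold or under 0.5-fold. With 1 array per condition, no test was run and the number of arrays limits the precision. The robust SD is a spread over genes, not a replicate error. Groups were taken from the sample titles.

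The genes named were, in each pair, the 3 highest and 3 lowest ribosomal protein genes, those past 2-fold, those with the 5 largest and 5 smallest ranges, and 18 with known extra roles. The genes and lists were chosen with earlier results of these data known. Alternatives were centring, quantile normalization, the mean over probe sets, the next brightest probe set, the exclusion of cross-hybridising probe sets (suffixes x and s), symbols as on the platform, and 2 treatments of low signals. The cre scale, the limit of 15000 and probe sets of several genes were added after the values were seen. The steps were tested on simulated data. Python 3.11.15, numpy 2.4.6, pandas 2.3.3, scipy 1.17.1 and matplotlib 3.10.9 were used.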

Additional observations from a re-analysis of the deposited data

Results flagged for a closer look

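The ribosomal protein genes had opposite signs in the knockdown comparisons of the 2 cultures, with a median log2 ratio of 0.10 for Th2-1st and -0.20 for Th2-4th cells as deposited. The sign was the same in both cultures after centring (-0.073 and -0.16) and on the cre scale (-0.060 and -0.0020). Rps27 had the reverse order, at -0.22 for Th2-1st and 1.36 for Th2-4th cells. With 1 array per condition these differences were not tested.

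A signal outside the comparisons also differed between the cultures. The 24 probe sets of the bacterial poly-A controls (dap, lys, phe and thr), which are added to the RNA before labelling, had a median log2 ratio of Th2-4th to Th2-1st control cells of 1.98 without and 1.34 with stimulation, where the ribosomal protein genes had 0.62 and 0.23 and the cre control 0.60 and 0.29. After stimulation the poly-A controls had medians of 0.34 for Th2-1st and -0.32 for Th2-4th cells. The cre control had 0.45 and 0.15 there, and the ribosomal protein genes 0.44 and 0.05. For Gata3 siRNA the poly-A controls had 0.096 and 0.092, the cre control 0.16 and -0.20, and the ribosomal protein genes 0.10 and -0.20. The part of the poly-A signal in the ratios of the ribosomal protein genes was not tested.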

How the results depend on the processing

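Under the 8 alternatives chosen first, 42 of 48 medians kept their sign (the others are the stimulation median of Th2-4th cells, -0.013 after quantile normalization, and 5 given below), 38 of 48 shares of genes above 1 stayed in their binomial interval (exact, for counting error over genes) and 32 of 48 counts past 2-fold stayed within 1.5 times. The counts rested on Rpl12, Rps25, Rps16, Rpl39 and Rps27. In the order stimulation (Th2-1st, Th2-4th), culture (unstimulated, stimulated) and Gata3 siRNA (Th2-1st, Th2-4th), the cre scale, chosen after seeing the data, moved the medians to -0.0074, -0.10, 0.029, -0.066, -0.060 and -0.0020. Quantile normalization moved the medians of stimulation in Th2-1st cells (0.050), of both culture comparisons (0.030 and -0.029) and of both knockdowns (0 and 0.0068), and the shares of genes above 1 to 57.1%, 40.5%, 59.5%, 35.7%, 47.6% and 52.4%. Centring moved the culture medians to 0.38 and -0.011 and the Th2-1st knockdown median to -0.073, and 3 shares above 1, to 78.6% for stimulation of Th2-4th, 45.2% for the stimulated cultures and 2.38% for the Th2-1st knockdown, where Rpl39 joined Rps16 for a count of 2 past 2-fold. The cause of these moves was not tested.

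Counts past 2-fold became 5 and 4 (stimulation) and 2 (Th2-4th knockdown) with the mean over probe sets, which also gave a share of 71.4% above 1 for the stimulated cultures. They became 5, 5 and 5 for both stimulations and the unstimulated cultures without cross-hybridising probe sets (37 genes left), and 2, 2, 4, 1 and 1 for stimulation, culture and the Th2-4th knockdown with the next brightest probe set (22 genes, of which 0 were past 2-fold by their brightest). Raising low signals, or leaving out genes below both array medians, removed Rps16 and left 0 in the stimulated cultures and the Th2-1st knockdown. Rps16 lay below the median of every array, so both treatments remove it by design, and its low signal limits its ratios. With 1 array per condition no replicate could be left out. No paired analysis was possible because each condition had 1 array and the labels carry no replicate numbers.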
